A study of Citrus sinensis with 12 samples.

Results

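In roots of sweet orange (Citrus sinensis) seedlings, 69 genes met a rule for a higher mean level at pH 3 at both copper levels. The rule also bounded how far those means differed with copper. The genes were selected on group means over all 12 libraries. Values were FPKM, the fragments counted on a gene divided by its length and by library size. A member had an identifier of the authors' annotation and at least 2 FPKM in its highest group. It also had a pH 3 minus pH 4.8 difference of at least 0.7 on the log2(mean FPKM + 1) scale at both copper levels, and both copper differences lay between -0.5 and 0.5. Of 20122 listed genes, 16339 met the identifier and level conditions, and 69 of these met the rest. The low-pH, copper and interaction values of the members, and the counts of members called in these contrasts, are therefore a description of what was chosen and support nothing further.

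The study grew seedlings for 17 weeks in 4 groups of 3 libraries. These were pH 3 with 300 µM CuCl2, pH 3 with 0.5 µM CuCl2, pH 4.8 with 300 µM CuCl2 and pH 4.8 with 0.5 µM CuCl2. Per the labels, pH 4.8 and 0.5 µM are the control levels, and each replicate pooled root material of 4 seedlings, each from its own pot. The titles of the control samples give 5 µM copper where the treatment label and the design text give 0.5 µM, which was used.

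As background, a root in an acid medium meets a high proton load at its surface, which disturbs the cell wall and the proton gradient that drives nutrient uptake. Proton pumps of the plasma membrane work against that load, and in Arabidopsis the zinc finger protein STOP1 is known to control many genes needed for growth at low pH. Copper is an essential cofactor of plant enzymes that becomes toxic in excess, in part through oxidative damage. The deposited tables do not pair identifiers with gene names, and the RefSeq gene table at hand held 0 of the 69, so no member is given a name or a role. Genes are given by identifier and by position in the authors' coordinates, for which the sources used here give neither genome build nor exon structure. For the same reason the tissue could not be checked against root markers, and no sequence is shown.

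Library depth, read from the steps between low FPKM values, was 17710000 to 22780000 fragments, and the level that 3 fragments give a 1 kb gene was 0.132 to 0.169 FPKM. Libraries of a group correlated at r = 0.973 to 0.991 across tested genes. A single limma fit on log2(FPKM + 1) held the 19204 genes whose mean reached 1 FPKM in some group, and a gene was called at a Benjamini-Hochberg adjusted p under 0.05. Below, a difference is the fitted one, with its standard error (SE), except where the limits or the scale of the rule are named. A ratio is that of group mean FPKM.

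The members split the libraries by pH. Relative to each gene's own mean over the 12 libraries, the median member stood at 0.66, 0.44 and 0.46 log2 units in the pH 3 libraries with 300 µM copper and at 0.51, 0.49 and 0.46 in those with 0.5 µM. In the pH 4.8 libraries it stood at -0.55, -0.60 and -0.48 with 300 µM copper and at -0.47, -0.54 and -0.39 with 0.5 µM. Summed over the 69 members, 2626 to 3004 FPKM were listed at pH 3 with 300 µM copper and 2562 to 2742 at pH 3 with 0.5 µM, against 1318 to 1446 at pH 4.8 with 300 µM and 1325 to 1427 at pH 4.8 with 0.5 µM. Cs4g11150 alone averaged 545 FPKM over the 12 libraries, so these sums lean on the most abundant members. In whole roots, more RNA per cell and more cells that hold the RNA cannot be told apart.

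**Figure D1:**
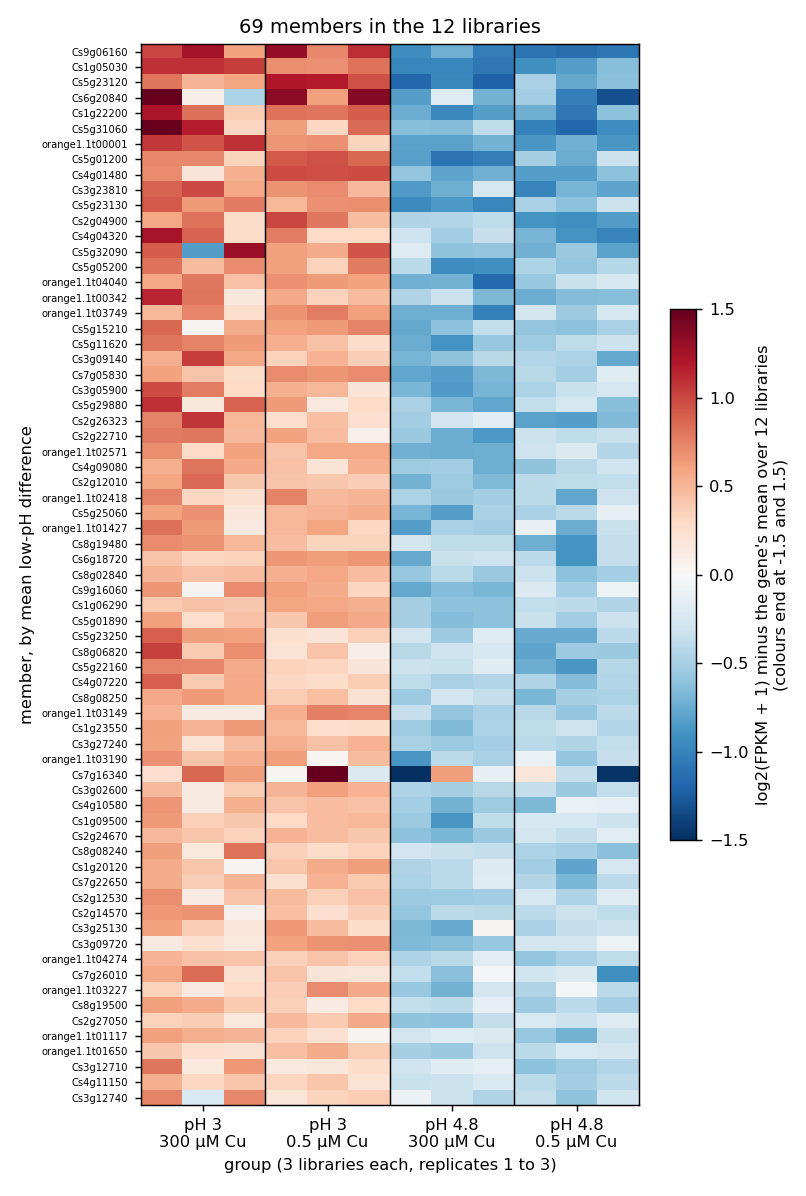
Each row is 1 of the 69 members and each column 1 of the 12 libraries, coloured by log2(FPKM + 1) minus the gene's mean over all libraries, with members ordered by their mean low-pH difference. The 6 columns at pH 3 are mostly red and the 6 at pH 4.8 mostly blue, while Cs7g16340, Cs5g32090 and Cs6g20840 hold libraries that break the pattern.

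The size of the difference was moderate in most members. The ratio of pH 3 to pH 4.8 had a median of 2.31 at 300 µM copper, with a range of 1.64 to 7.89, and a median of 2.14 at 0.5 µM, with a range of 1.66 to 5.46. Differences that chose the members reached at least 1 at both copper levels in 20 of them, and the smaller one was under 0.8 in 25. In the fit 66 members were called higher at pH 3 with 300 µM copper, where 19.5% of all tested genes were, and 68 with 0.5 µM, where 13.3% were. Both calls were met by 66 members, and by 5.42% of tested genes. All 3 libraries at pH 3 lay above all 3 at pH 4.8 in 65 members at 300 µM (21.8% of tested genes) and in 68 at 0.5 µM (22.1%). All 6 libraries at pH 3 lay above all 6 at pH 4.8 in 65 members, as in 3.66% of tested genes. Since the choice used these contrasts, such counts restate it.

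Cs9g06160 on chromosome 9 (3729742 to 3731245, plus strand) had the largest mean low-pH difference. Its libraries at pH 3 held 57.04, 68.13 and 43.26 FPKM with 300 µM copper and 71.66, 46.97 and 61.61 FPKM with 0.5 µM. Those at pH 4.8 held 14.21, 16.66 and 13.14 FPKM with 300 µM and 12.62, 12.31 and 12.67 FPKM with 0.5 µM. The lowest pH 3 library was thus far above the highest pH 4.8 library, and the copper groups overlapped at pH 3 and stood apart at pH 4.8. The low-pH difference was 1.85 (SE 0.16) at 300 µM and 2.15 (SE 0.16) at 0.5 µM, as ratios of 3.83 and 4.79.

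Cs1g05030 on chromosome 1 (4580382 to 4583612, minus strand) had the largest difference at 300 µM copper, from low levels. At pH 3 it was listed at 7.29, 7.31 and 7.01 FPKM with 300 µM copper and at 5.29, 5.27 and 5.82 FPKM with 0.5 µM. At pH 4.8 it was listed at 0.97, 0.98 and 0.85 FPKM with 300 µM and at 1.06, 1.19 and 1.51 FPKM with 0.5 µM. At each pH the 2 copper groups did not overlap, in opposite directions. The low-pH difference was 2.09 (SE 0.11) at 300 µM and 1.52 (SE 0.11) at 0.5 µM, and the ratios were 7.72 and 4.36.

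Cs1g22200 (chromosome 1, 24902062 to 24904957) and Cs3g23810 (chromosome 3, 25978165 to 25980305) had nearly the same low-pH difference at both copper levels. Cs1g22200 had 29.34, 22.14 and 15.99 FPKM at pH 3 with 300 µM and 21.98, 21.72 and 23.63 at pH 3 with 0.5 µM, against 6.82, 5.71 and 6.4 at pH 4.8 with 300 µM and 6.86, 5.24 and 7.52 at pH 4.8 with 0.5 µM. Its differences were 1.65 (SE 0.18) at each copper level, and its copper groups overlapped at both pH values. For Cs3g23810 the libraries held 34.09, 36.76 and 27.42 FPKM at pH 3 with 300 µM and 29.28, 30.11 and 25.64 at pH 3 with 0.5 µM, against 9.54, 10.48 and 14.78 at pH 4.8 with 300 µM and 8.61, 10.77 and 9.97 at pH 4.8 with 0.5 µM. Its differences were 1.43 (SE 0.15) and 1.45 (SE 0.15), and again the copper groups overlapped.

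Several strong members kept a copper difference close to the limit of 0.5. Cs5g31060 (chromosome 5, 32794946 to 32797191) had 66.14, 52.38 and 28.65 FPKM at pH 3 with 300 µM and 35.60, 28.33 and 41.43 at pH 3 with 0.5 µM, against 14.14, 14.03 and 17.16 at pH 4.8 with 300 µM and 10.68, 9.42 and 11.43 at pH 4.8 with 0.5 µM. Its low-pH differences were 1.56 (SE 0.23) at 300 µM and 1.64 (SE 0.23) at 0.5 µM. Its copper differences were 0.41 at pH 3, where the copper groups overlapped, and 0.48 at pH 4.8, where they did not. The gene orange1.1t00001 (unplaced sequence, 81281 to 117230), whose span of 35950 bp is the longest among the members, had 63.36, 58.41 and 64.97 FPKM at pH 3 with 300 µM and 47.62, 48.52 and 37.73 at pH 3 with 0.5 µM, against 16.59, 16.62 and 17.84 at pH 4.8 with 300 µM and 15.87, 17.76 and 15.76 at pH 4.8 with 0.5 µM. Its low-pH differences were 1.81 (SE 0.10) and 1.38 (SE 0.10), and copper groups overlapped at pH 4.8 but not at pH 3.

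Of the top 10, Cs4g01480, Cs5g01200 and Cs5g23120 had a lower level at pH 3 with 300 µM than with 0.5 µM copper, with no overlap. The share of all genes whose copper groups do not overlap was not counted, so nothing is read from such gaps. Cs4g01480 (chromosome 4, 398289 to 400374) had 21.94, 15.04 and 19.37 FPKM at pH 3 with 300 µM and 26.68, 26.50 and 26.77 at pH 3 with 0.5 µM, against 8.45, 7.12 and 7.56 at pH 4.8 with 300 µM and 6.92, 6.93 and 8.21 at pH 4.8 with 0.5 µM. Its low-pH differences were 1.17 (SE 0.12) at 300 µM and 1.73 (SE 0.12) at 0.5 µM. Cs5g01200 (chromosome 5, 208773 to 211275) had 18.39, 18.25 and 13.76 FPKM at pH 3 with 300 µM and 21.26, 21.77 and 20.29 at pH 3 with 0.5 µM, against 5.64, 4.44 and 4.72 at pH 4.8 with 300 µM and 7.32, 6 and 8.38 at pH 4.8 with 0.5 µM. Its differences were 1.58 (SE 0.13) and 1.43 (SE 0.13), and it was lower with 300 µM copper at pH 4.8 as well. Cs5g23120 and Cs6g20840, which complete the top 10, are described further on, among neighbouring members and among members with wide spread.

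**Figure D2:**
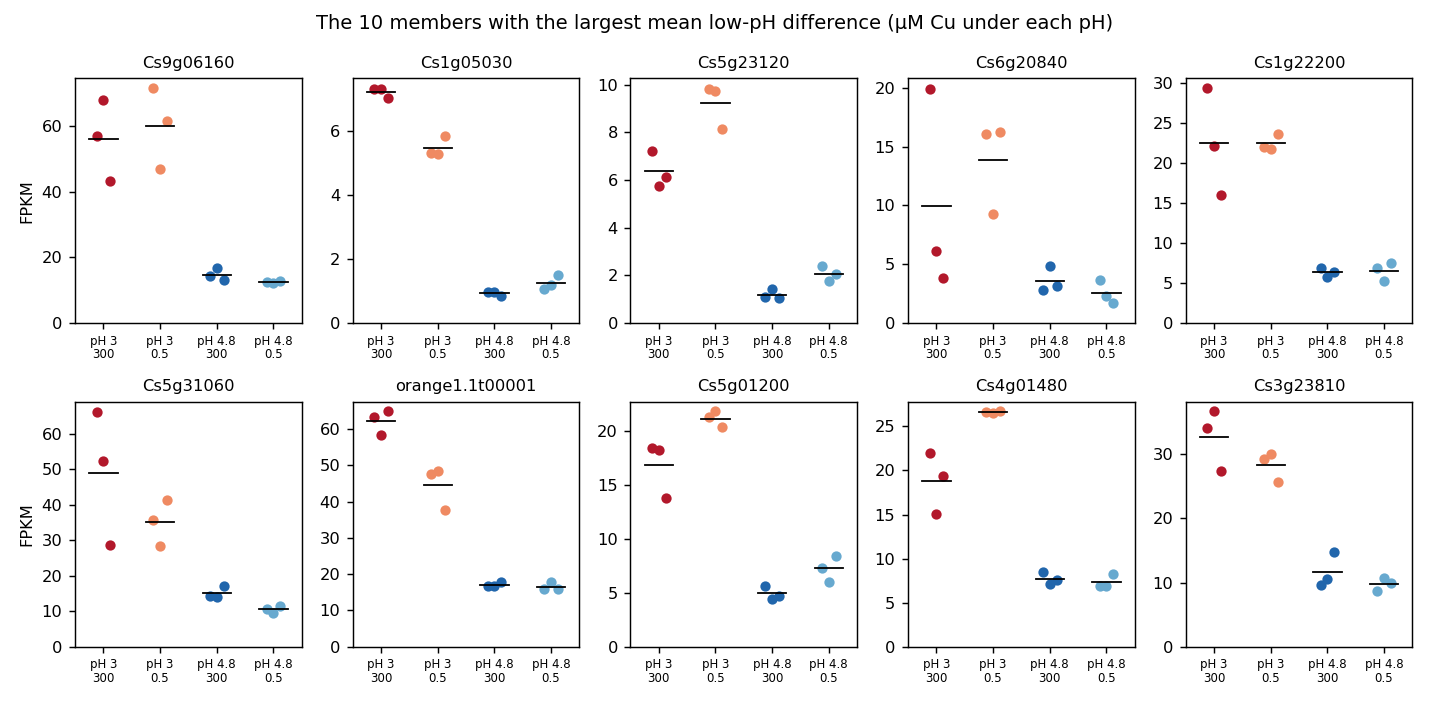
FPKM in each of the 12 libraries (points) with the mean of each group (bars) for the 10 members with the largest mean low-pH difference; the number under each pH is the copper level in µM. In 9 of the 10 both pH 3 groups lie above both pH 4.8 groups without overlap, and in Cs6g20840 the groups overlap at 300 µM copper.

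The 5 most abundant members had ratios of 1.64 to 2.41 at 300 µM copper and of 1.66 to 2.14 at 0.5 µM. Averaged over the 12 libraries, 4 of the 69 reached 100 FPKM and 11 reached 50 FPKM, while 20 were under 5 FPKM. Cs4g11150 (chromosome 4, 7827960 to 7830827) was the most abundant, with 763.07, 652.66 and 701.34 FPKM at pH 3 with 300 µM and 661.64, 702.32 and 610.68 at pH 3 with 0.5 µM, against 416.29, 422.12 and 449.60 at pH 4.8 with 300 µM and 397.79, 367.81 and 400.17 at pH 4.8 with 0.5 µM. Its ratios of 1.64 and 1.69 placed it near the threshold, with differences of 0.71 (SE 0.09) and 0.76 (SE 0.09), yet its lowest pH 3 library stood well above its highest pH 4.8 library.

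Cs2g24670 (chromosome 2, 23832362 to 23836608) averaged 164 ± 7.65 FPKM at pH 3 with 300 µM and 169 ± 6.93 at pH 3 with 0.5 µM, against 79.3 ± 3.84 at pH 4.8 with 300 µM and 102 ± 6.91 at pH 4.8 with 0.5 µM (SD, n = 3 each). Cs2g12010 (chromosome 2, 8998565 to 9000323) averaged 170 ± 26.6 and 144 ± 2.55 FPKM at pH 3 with 300 and 0.5 µM, against 70.2 ± 4.46 and 83.7 ± 0.950 FPKM at pH 4.8 with 300 and 0.5 µM. Both had a lower mean with 300 µM copper at pH 4.8, where their copper groups did not overlap, and both had a larger low-pH difference at 300 µM (1.04 and 1.25) than at 0.5 µM (0.73 and 0.78). The copper differences of Cs2g24670 were -0.05 at pH 3 and -0.36 at pH 4.8, and those of Cs2g12010 were 0.22 and -0.25. Cs2g26323 (chromosome 2, 26162745 to 26163633) averaged 177 ± 35.8 and 128 ± 10.3 FPKM at pH 3 with 300 and 0.5 µM, against 81.8 ± 10.4 and 59.8 ± 3.93 FPKM at pH 4.8 with 300 and 0.5 µM. Its copper differences were 0.45 (SE 0.13) at pH 3 and 0.44 (SE 0.13) at pH 4.8, so that low pH gave the same difference of 1.09 at both copper levels. Cs8g02840 (chromosome 8, 1227363 to 1230584) showed almost no copper difference, with 103 ± 2.58 and 108 ± 4.66 FPKM at pH 3 with 300 and 0.5 µM, against 52.0 ± 3.52 and 53.1 ± 5.76 FPKM at pH 4.8 with 300 and 0.5 µM.

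Whether the members were steady under copper was then described, since the rule allowed differences up to 0.5. Fitted copper differences ran from -0.69 to 0.48 at pH 3 and from -0.49 to 0.48 at pH 4.8. In all, 25 members were called in at least 1 copper test or in the interaction, as were 62.6% of tested genes. Since the rule bounded the copper differences, these calls are shaped by the choice and nothing is read from them. For the other 44 members, the lack of a call does not show that copper left them unchanged. Copper differences on the scale of the rule had the same sign at both pH values in 42 members, 21 above and 21 below 0. A further 19 were above 0 at pH 3 and below 0 at pH 4.8, and 8 the reverse. The signs come from the group means that the rule used and have no share over all genes beside them, so nothing is read from them.

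At pH 3, 9 members were called higher with 300 µM copper (20.6% of tested genes were) and 4 lower (15.7%), a split that became 6 higher and 7 lower under either median scaling or quantile normalization. The higher ones were orange1.1t00001 with a difference of 0.48 (SE 0.10), Cs8g06820, Cs5g23250, Cs2g26323, Cs5g22160, orange1.1t01117, Cs1g05030, Cs5g11620 and Cs1g23550, the last with 0.24 (SE 0.08). The lower ones were Cs4g01480 with -0.50 (SE 0.12), Cs5g23120, Cs3g09720 and orange1.1t03149, the last with -0.41 (SE 0.13). The balance turned to 2 higher and 6 lower without replicate 1 of the pH 3 group with 300 µM copper, and was 13 higher and 3 lower without replicate 3 of that group. It was 3 higher and 3 lower without replicate 2 or without replicate 3 of the pH 3 group with 0.5 µM.

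At pH 4.8, 3 members were called higher with 300 µM copper (25.5% of tested genes were) and 14 lower (26.5%). Lower calls were also the more numerous under median scaling (3 higher, 16 lower) and quantile normalization (4 higher, 16 lower). Cs5g23120, orange1.1t04040, Cs5g01200 and orange1.1t03749 had the largest of the lower differences, at -0.49, -0.48, -0.47 and -0.46. The higher ones were Cs2g04900 at 0.46 (SE 0.14), Cs2g26323 at 0.44 (SE 0.13) and Cs5g22160 at 0.40 (SE 0.13). Without replicate 3 of the pH 4.8 group with 0.5 µM copper the numbers were 6 higher and 7 lower. Both copper tests called 5 members, as they did 25.9% of tested genes. Of these 5, Cs2g26323 and Cs5g22160 were higher at both pH values, Cs5g23120 and Cs3g09720 were lower at both, and Cs5g11620 was higher at pH 3 and lower at pH 4.8. Members in these lists that are described nowhere else were named after their values were seen.

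**Figure D3:**
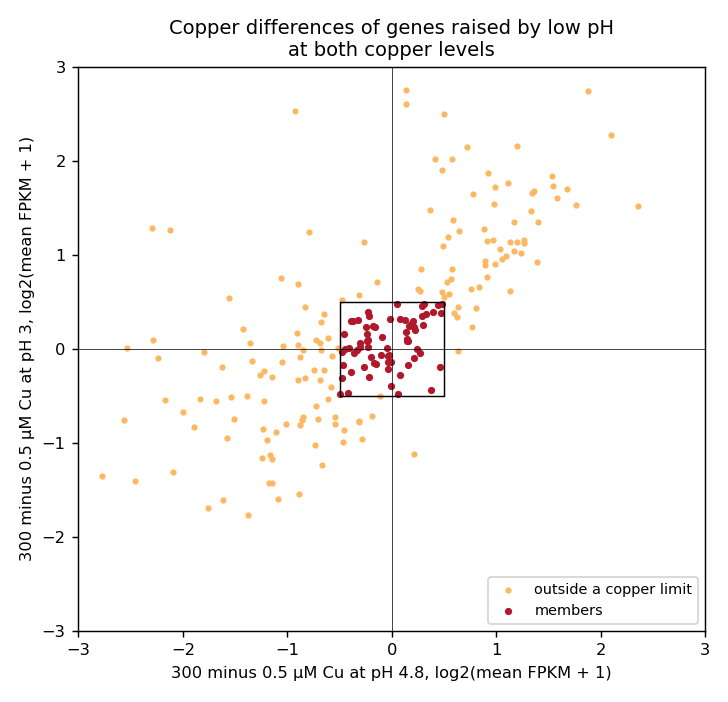
Copper difference (300 minus 0.5 µM, log2 of mean FPKM + 1) at pH 3 on the vertical axis and at pH 4.8 on the horizontal axis for the genes raised by low pH at both copper levels; the 69 members are dark red, the box marks the limits of 0.5, and 6 of the other genes lie outside the drawn range. Members fill the box up to its edges, and the other genes continue beyond it with no gap, mostly towards the upper right and lower left.

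The members are the part of a larger set that met the copper limits. Low pH raised 1338 of the 16339 genes by at least 0.7 at 300 µM copper and 759 at 0.5 µM, and 230 at both. Of those 230 the copper limits removed 161. Copper differences were above 0.5 at both pH values in 51 of the removed genes and below -0.5 at both in 40. Another 32 were below -0.5 at pH 4.8 and within the limits at pH 3, and 17 were above 0.5 at pH 3 and within the limits at pH 4.8. The mirrored rule, for genes lower at pH 3 at both copper levels and within the same copper limits, found 192 genes. With any copper difference, 393 genes were lower at both copper levels. Without rescaling, lowered genes were thus more numerous than raised ones, with the copper limits and without them. The fitted median over all tested genes was itself below 0, at -0.04 with 300 µM and -0.06 with 0.5 µM copper. With median scaling 90 genes met the rule for raised genes, and the lowered counts were not repeated under another scaling.

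**Figure D4:**
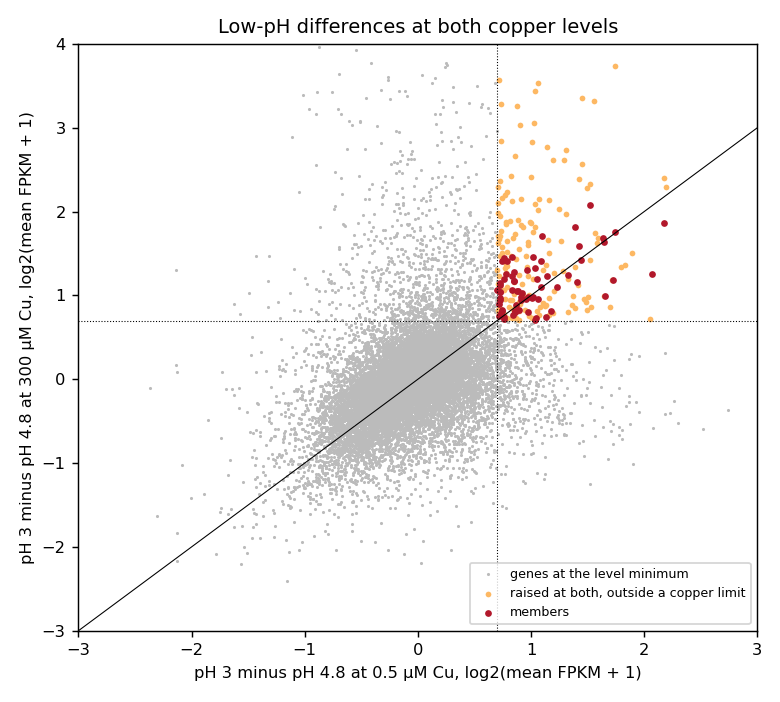
Low-pH difference (pH 3 minus pH 4.8, log2 of mean FPKM + 1) at 300 µM copper on the vertical axis and at 0.5 µM on the horizontal axis for the 16339 genes at the level minimum, of which 39 lie outside the drawn range; dotted lines mark 0.7 and the solid line marks equal differences. Members (dark red) stay near the solid line, as the copper limits require, while other genes raised at both copper levels (orange) reach far higher at 300 µM.

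The low-pH difference on the scale of the rule was larger at 300 µM copper in 44 members and larger at 0.5 µM in 25. This split also comes from the means that the rule used, with no share over all genes beside it. The fitted interaction, the low-pH difference at 300 µM minus that at 0.5 µM, ran from -1.08 to 0.68 with a median of 0.06. Over all tested genes the median was 0.03, or 0.002 under median scaling and -0.02 under quantile normalization. The interaction was called above 0 in 7 members (11.6% of tested genes) and below 0 in 2 (9.2%), and in 6 and 2 under either other scaling. The count of 9 depended on single libraries. It was 11 without replicate 2 and 10 without replicate 3 of the pH 3 group with 300 µM. Without replicate 1 of either pH 3 group it was 6. Without replicate 2 of the pH 3 group with 0.5 µM it was 5. The same count of 5 came without replicate 2 or 3 at pH 4.8 with 300 µM, or replicate 1 at pH 4.8 with 0.5 µM. Without replicate 3 at pH 3 with 0.5 µM, or replicate 1 at pH 4.8 with 300 µM, it was 4. At pH 4.8 with 0.5 µM, leaving out replicate 2 gave 4 and leaving out replicate 3 gave 3.

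The largest positive values belonged to Cs2g22710 and Cs3g05900, both modest in level. Cs2g22710 (chromosome 2, 20382559 to 20384126) had 7.90, 7.99 and 6.30 FPKM at pH 3 with 300 µM and 6.9, 6.2 and 4.5 at pH 3 with 0.5 µM, against 2.53, 2.1 and 1.87 at pH 4.8 with 300 µM and 3.18, 2.99 and 3.14 at pH 4.8 with 0.5 µM. Copper groups overlapped at pH 3 and not at pH 4.8, and the interaction was 0.68 (SE 0.21). Cs3g05900 (chromosome 3, 7804101 to 7805835) averaged 9.16 ± 2.34 and 7.28 ± 1.01 FPKM at pH 3 with 300 and 0.5 µM, against 2.72 ± 0.231 and 3.87 ± 0.359 FPKM at pH 4.8 with 300 and 0.5 µM (SD, n = 3 each). Its interaction of 0.66 (SE 0.23) was not called.

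Cs5g11620 (chromosome 5, 8723652 to 8725575) gave the same pattern at a higher level. It had 80.83, 77.14 and 71.76 FPKM at pH 3 with 300 µM and 67.55, 62.60 and 55.79 at pH 3 with 0.5 µM, against 26.90, 24.10 and 30.59 at pH 4.8 with 300 µM and 31.42, 34.97 and 36.49 at pH 4.8 with 0.5 µM. None of its groups overlapped, copper going with a higher level at pH 3 and a lower one at pH 4.8, and the interaction was 0.63 (SE 0.14). On the negative side, Cs2g04900 (chromosome 2, 2559154 to 2562354) had 18.76, 22.11 and 14.94 FPKM at pH 3 with 300 µM and 25.46, 21.84 and 17.25 at pH 3 with 0.5 µM, against 8.66, 8.72 and 9.11 at pH 4.8 with 300 µM and 6.08, 5.97 and 6.36 at pH 4.8 with 0.5 µM. Its copper groups overlapped at pH 3 and stood apart at pH 4.8, where 300 µM gave the higher level, and the interaction was -0.66 (SE 0.20). Below 0 lay also Cs4g01480 at -0.56 (SE 0.17) and Cs6g20840 at -1.08 (SE 0.60), the second not called.

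Pairs of members lay near each other on chromosomes 5 and 8. With up to 3 listed genes on either side searched, 6 of the 69 members (8.70%) had another member near them. The same held for 14 of the 192 genes of the mirrored rule (7.29%). A larger set has more genes that can fall near each other, so these shares cannot be compared directly, and neither was set against an expected share. Of the 111 places directly beside a member that held a gene at the level minimum, 6 (5.41%) held one raised by at least 0.7 at both copper levels, against 1.36% of the places beside any of the 16339. Of these 6, 2 were the members Cs8g08240 and Cs8g08250 beside each other. The other 4 failed a copper limit and were Cs1g20100, Cs3g12750, Cs4g09090 and Cs5g29870, named after their values were seen. Cs4g09090 had low-pH differences of 2.42 at 300 µM and 1.00 at 0.5 µM on the scale of the rule, with a copper difference of -1.36 at pH 4.8, and Cs3g12750 had copper differences of 1.53 at pH 3 and 1.77 at pH 4.8. The median low-pH difference at the 111 places was, on the scale of the rule, -0.02 at 300 µM and -0.01 at 0.5 µM. These values were near the medians beside all genes (-0.05 and -0.07).

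The strongest pair was Cs5g23120 (25868774 to 25872706) and Cs5g23130 (25878121 to 25881799), both on the plus strand of chromosome 5 and 5414 bp apart. Cs5g23120 had 7.21, 5.73 and 6.14 FPKM at pH 3 with 300 µM and 9.83, 9.76 and 8.16 at pH 3 with 0.5 µM, against 1.08, 1.42 and 1.04 at pH 4.8 with 300 µM and 2.37, 1.78 and 2.05 at pH 4.8 with 0.5 µM. Cs5g23130 had 4.37, 3.42 and 3.89 FPKM at pH 3 with 300 µM and 3.00, 3.58 and 3.59 at pH 3 with 0.5 µM, against 0.47, 0.57 and 0.44 at pH 4.8 with 300 µM and 1.03, 0.85 and 1.27 at pH 4.8 with 0.5 µM. Both were lower with 300 µM copper at pH 4.8, and at pH 3 the copper groups stood apart for Cs5g23120 and overlapped for Cs5g23130. Low-pH differences were 1.75 (SE 0.13) and 1.74 (SE 0.13) at 300 and 0.5 µM for Cs5g23120, and 1.71 (SE 0.12) and 1.10 (SE 0.12) for Cs5g23130, whose value at 300 µM became 2.75 with a pseudocount of 0.1.

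Between them lies a locus outside the annotation (25872977 to 25874578, minus strand), which the rule's condition on identifiers keeps out. Its mean was 2.88 and 4.07 FPKM at pH 3 with 300 and 0.5 µM, against 0.973 and 0.940 FPKM at pH 4.8 with 300 and 0.5 µM, so that 3 consecutive listed loci were higher at pH 3. The genes on the outer sides, Cs5g23110 and Cs5g23140, had low-pH differences of 0.16 and -0.18 at 300 µM and of 0.13 and -0.20 at 0.5 µM on the scale of the rule. Cs5g23130 and Cs5g23140 overlap by 426 bp on opposite strands, and near-identical copies could share reads, so values within this stretch are uncertain to that extent.

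On chromosome 8 the members Cs8g08240 (6422261 to 6427837) and Cs8g08250 (6440376 to 6442848) were consecutive on the minus strand with 12538 bp between them. Cs8g08240 averaged 45.1 ± 10.3 and 38.3 ± 1.24 FPKM at pH 3 with 300 and 0.5 µM, against 23.9 ± 0.622 and 20.5 ± 1.15 FPKM at pH 4.8 with 300 and 0.5 µM (SD, n = 3 each). Cs8g08250 averaged 40.2 ± 1.21 and 33.9 ± 2.74 FPKM at pH 3 with 300 and 0.5 µM, against 19.8 ± 1.95 and 17.6 ± 1.48 FPKM at pH 4.8 with 300 and 0.5 µM. The levels and low-pH differences of this pair were close, at 0.86 and 0.99 with 300 µM copper and 0.87 and 0.91 with 0.5 µM.

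The third pair, Cs8g19480 (21653213 to 21654832) and Cs8g19500 (21663061 to 21664976), lies on the plus strand of chromosome 8 with Cs8g19490 on the minus strand between. Cs8g19480 averaged 11.7 ± 0.991 and 9.68 ± 0.552 FPKM at pH 3 with 300 and 0.5 µM, against 5.48 ± 0.254 and 4.27 ± 1.00 FPKM at pH 4.8 with 300 and 0.5 µM (SD, n = 3 each). Cs8g19500 averaged 10.5 ± 0.913 and 8.60 ± 0.808 FPKM at pH 3 with 300 and 0.5 µM, against 5.51 ± 0.617 and 4.72 ± 0.318 FPKM at pH 4.8 with 300 and 0.5 µM. The gene between them went the other way, with low-pH differences of -0.73 at 300 µM and -0.46 at 0.5 µM on the scale of the rule, and the next genes, Cs8g19510 and Cs8g19520, were also lower at pH 3 (-0.83 and -0.78 at 300 µM).

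Position, length and strand were not used in the choice. Members were found on all 9 chromosomes and on unplaced sequence, from 0.149% of the genes at the level minimum on chromosome 6 (2 of 1343) to 0.617% on chromosome 5 (13 of 2107). Unplaced sequence held 13 members (18.8%), against 10.9% of the mirrored set and 14.1% of all genes at the level minimum. The span from start to end, introns included, had a median of 2868 bp, against 2645 bp in the mirrored set and 3291 bp in all. On the plus strand lay 41 members and on the minus strand 28 (59.4% plus), against 48.4% plus in the mirrored set and 50.9% in all. The median level of members was 9.53 FPKM, against 6.43 in the mirrored set and 11.2 in all. Another listed gene on the opposite strand overlapped 5 members (Cs1g09500, Cs3g09720, Cs4g07220, Cs5g23130 and orange1.1t03227), by 11.6% to 68.7% of the length of the member. Whether the counting used strand is not stated, so the values of these 5 are uncertain where reads of both genes meet.

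Spread among pools set some members apart. The SD of log2(FPKM + 1) within a group had a median over members of 0.21 at pH 3 with 300 µM, 0.11 at pH 3 with 0.5 µM, 0.13 at pH 4.8 with 300 µM and 0.13 at pH 4.8 with 0.5 µM. Over all genes at the level minimum the medians were 0.17, 0.11, 0.12 and 0.11 in the same groups. The group at pH 3 with 300 µM copper had the largest SD in 34 of the 69 members. Within that group the median member of replicate 1 stood 0.13 log2 units above the group mean, against 0.01 for all genes at the level minimum.

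Cs7g16340 (chromosome 7, 11865126 to 11865879) met the rule by its means alone. It had 23.08, 35.90 and 30.42 FPKM at pH 3 with 300 µM and 19.59, 56.21 and 16.46 at pH 3 with 0.5 µM, against 4.48, 30.38 and 17.58 at pH 4.8 with 300 µM and 21.97, 14.77 and 6.30 at pH 4.8 with 0.5 µM. The pH groups overlapped at both copper levels, and neither low-pH difference was called. Its difference of 1.04 (SE 0.59) at 300 µM was 0.33 without replicate 1 and 1.59 without replicate 2 of the pH 4.8 group with 300 µM, and its difference of 0.99 (SE 0.59) at 0.5 µM was 0.46 without replicate 2 of the pH 3 group and 0.53 without replicate 3 of the pH 4.8 group.

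Cs5g32090 (chromosome 5, 33482755 to 33486592) had 6.34, 1.19 and 8.63 FPKM at pH 3 with 300 µM and 4.98, 4.74 and 6.53 at pH 3 with 0.5 µM, against 2.41, 1.57 and 1.6 at pH 4.8 with 300 µM and 1.37, 1.65 and 1.25 at pH 4.8 with 0.5 µM. Replicate 2 at pH 3 with 300 µM was the lowest of all 12, so the pH groups overlapped at 300 µM and stood apart at 0.5 µM. The difference at 300 µM was 0.92 (SE 0.39), 1.57 without that library and 0.50 without replicate 3 of the same group. Without replicate 3 of the pH 3 group with 0.5 µM the call at 0.5 µM was lost, with the difference at 1.28.

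Cs6g20840 (chromosome 6, 20187798 to 20190551) had 19.89, 6.15 and 3.82 FPKM at pH 3 with 300 µM and 16.11, 9.28 and 16.25 at pH 3 with 0.5 µM, against 2.79, 4.88 and 3.10 at pH 4.8 with 300 µM and 3.65, 2.30 and 1.68 at pH 4.8 with 0.5 µM. A single high library carried its mean at pH 3 with 300 µM: the difference at 300 µM was 0.99 (SE 0.42) and was 0.38 without replicate 1 of that group, and the call was gained, at 1.44, without replicate 3. At 0.5 µM the pH groups stood apart, with a difference of 2.07 (SE 0.42). The remaining member whose groups overlapped at 300 µM was Cs3g12740 (chromosome 3, 17176771 to 17182299), named after its values were seen, with 3.67, 1.37 and 3.58 FPKM at pH 3 and 1.03 to 1.62 FPKM at pH 4.8.

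The 41 members not named by the fixed rule ranged from 1.18 to 76.2 FPKM in mean level. Their ratios of pH 3 to pH 4.8 ran from 1.69 to 6.04 at 300 µM copper, with a median of 2.27, and from 1.68 to 4.18 at 0.5 µM, with a median of 2.09. Their levels in each library are among the rows of the plot of all members.

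Membership near the limits turned on small differences. Cs1g09500 (chromosome 1) and Cs1g20120 (chromosome 1) were the members closest to 0.7 in their smaller low-pH difference, at 0.70 (0.5 µM) and 0.71 (300 µM). Just outside were Cs9g13630 and orange1.1t05429, at 0.697 and 0.695 with 0.5 µM copper and otherwise inside every limit, both named by their place next to the limit. For the copper limit, Cs5g23120 at -0.49 and Cs5g31060 at 0.49 were the members closest to it, both at pH 4.8. Cs4g19230 with -0.51 at pH 3 and Cs1g02350 with -0.52 at pH 4.8 fell just outside. For the level, Cs5g25060 entered with 2.02 FPKM in its highest group, and orange1.1t03549 with 1.73 FPKM did not.

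The rule was applied to 2 replicate numbers, and the chosen genes were read in the libraries of the number left out. With replicate 1, 2 and 3 left out in turn, 61, 64 and 85 genes were chosen, of which 42, 46 and 57 were among the 69. In the libraries left out, the median low-pH difference of the chosen genes was 1.11, 0.88 and 0.79 at 300 µM copper and 0.85, 0.95 and 0.76 at 0.5 µM. Over all genes at the level minimum it lay between -0.07 and -0.03. Both differences were above 0 in 55 of 61, 55 of 64 and 81 of 85 chosen genes, or 90.2%, 85.9% and 95.3%, against 29.3%, 25.4% and 27.5% of all genes. Both reached 0.7 in 40, 35 and 34 of them, or 65.6%, 54.7% and 40.0%, against 1.97%, 1.88% and 1.71% of all genes. Both copper differences lay within 0.5 in the left-out libraries in 38 of 61, 31 of 64 and 51 of 85 chosen genes. Every condition on differences was met again there by 31 of 61, 22 of 64 and 21 of 85. These copper and joint counts have no share over all genes beside them. The 3 choices share libraries, and the rule itself was set with earlier results of these data known, so these values are a description.

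**Figure D5:**
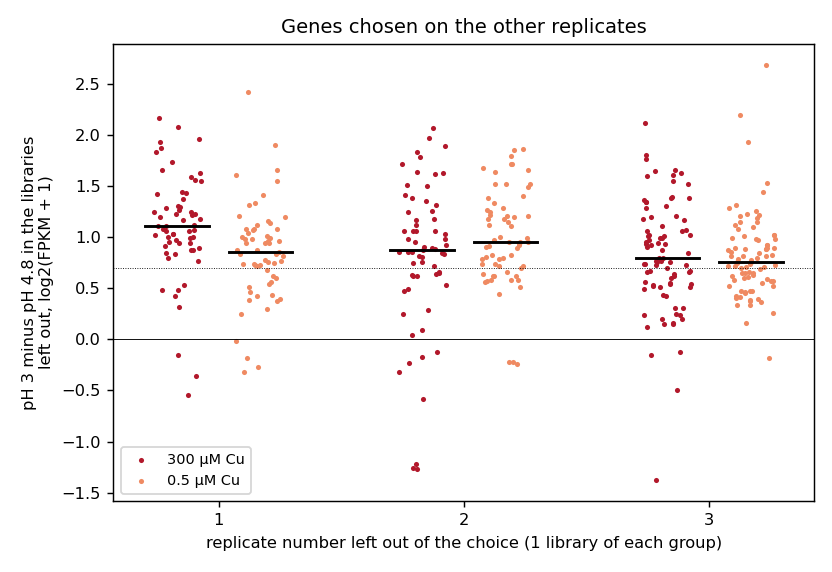
Low-pH difference (pH 3 minus pH 4.8, log2 of FPKM + 1) in the libraries left out of the choice, 1 point per chosen gene, at 300 µM copper (dark red) and 0.5 µM copper (orange) for each replicate number left out; black bars are medians and the dotted line marks 0.7. Most points lie above 0 and medians lie between 0.76 and 1.11, while points below 0 occur at both copper levels.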

How the data were processed

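RNA of 12 root pools was sequenced from libraries made with the NEBNext Ultra kit from 1 µg of RNA, per the labels' protocols. The authors deposited FPKM values to 2 decimals with gene positions. The tools DESeq2 1.22.1, StringTie 1.3.4d, featureCounts 1.6.2, HISAT2 2.1.0 and fastp 0.19.3 are named, without roles, per the submitters' processing notes. How multi-mapped reads were handled is not stated. As the tables hold no counts, limma 3.58.1 (R 4.3.3) with a variance trend was fitted to log2(FPKM + 1), with a pseudocount of 1, for 4 group means over 19204 genes, with Benjamini-Hochberg adjustment, two-sided. All 69 members passed that filter. Differences of low genes are understated on this scale. The p-values set a difference against the spread among pools within groups, estimated over all 4 groups. Depth was the number of fragments at which FPKM under 6 of genes shorter than 900 bp came closest to whole fragments; it covers counting error only. Groups follow the treatment label.

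The members, comparisons and naming rule were chosen with earlier results of these data known. The rule names the 10 members with the largest mean low-pH difference, the 5 most abundant, the 3 largest and 3 smallest interactions, neighbouring members, the 2 closest to the low-pH limit and the 2 with the widest spread, 28 in all. No gene list could be filled, as identifiers carry no names. Alternatives were other pseudocounts, filters, limits, scalings, a replicate block and libraries left out.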

Additional observations from a re-analysis of the deposited data

Results flagged for a closer look

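In 9 members the interaction, the low-pH difference at 300 µM minus that at 0.5 µM, was called in the fit over all genes. The rule chose the members on the same differences, and its limits allow interactions of up to 1, so these values are a description and no finding. The interaction was 0.68 in Cs2g22710, 0.63 in Cs5g11620, 0.61 in Cs5g23130, 0.56 in Cs1g05030, 0.47 in Cs2g12010, 0.43 in orange1.1t00001 and 0.42 in Cs1g23550, which was named after its values were seen. It was -0.56 in Cs4g01480 and -0.66 in Cs2g04900. Cs1g23550 (chromosome 1, 26088175 to 26094842) had 42.86, 39.79 and 43.39 FPKM at pH 3 with 300 µM and 39.39, 33.37 and 33.70 at pH 3 with 0.5 µM, against 18.70, 17.14 and 19.59 at pH 4.8 with 300 µM and 21.05, 22.05 and 20.13 at pH 4.8 with 0.5 µM.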

How the results depend on the processing

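The number of members was 164 with low-pH differences of at least 0.5, 20 with at least 1 and 35 with copper differences within 0.3. It lay between 57 and 90 under a pseudocount of 0.1, a level minimum of 5 FPKM or none, median scaling and quantile normalization, with 56 to 69 of the members shared. Leaving out 1 library or 1 replicate number gave 61 to 85 members, and 27 of the 69 met the rule without each of the 12 libraries in turn. Members called for low pH numbered 65 to 67 at 300 µM copper and 66 to 68 at 0.5 µM with 1 library left out. The counts for copper at pH 3, copper at pH 4.8 and the interaction then ran from 6 to 16, 12 to 22 and 3 to 11. With a replicate block they were 14, 18 and 8, and 66 and 68 for low pH, which changed no count by over 1.5 times; same-numbered libraries correlated at r = -0.22 to 0.24 in their deviations from group means over 18 pairs, and 6 of the 12 libraries correlated best with their own number, so the numbers were not taken as pairs. Of the 896 values of named low-pH differences under alternatives, 893 kept their direction and side of the threshold, 2 gained the call and 1 lost it. The replicate block, or leaving out a library of the other copper level, cannot alter a fitted low-pH difference. In those settings only the call could change, so the 893 overstate how far direction was tried. Depth limits the lowest members, such as orange1.1t01117 with a mean of 1.18 FPKM.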
